A study of Mus musculus with 8 samples.

Results

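The translation initiation factors are the genes whose symbols begin with Eif followed by a digit, and 55 of the 24054 genes in the expression table of SOL (soleus muscle) carry such a symbol. Membership was set by the symbol alone, without any measured value. SOL RNA was sequenced from 4 MI4KO mice, which lack Irf4 in skeletal muscle, and 4 flox mice, 1 library per mouse. All 8 mice were male C57BL/6 animals, and high-fat food is given for each of them in the sample labels, whereas the study's text leaves the diet of these animals unnamed. MI4KO mice carry floxed Irf4 alleles and a Cre driven by Myl1, which is active selectively in skeletal muscle, and flox mice are the controls with the floxed alleles. The whole muscle was used, so that endothelial cells, Schwann cells, satellite cells, adipocytes and fibroblasts, in which this Cre is not meant to act, also gave RNA. The ages of the sequenced mice are not given in the sources used here. Within each group the mice are called 1 to 4, from the lowest to the highest number in the sample titles. A level in this report is the deposited TMM-normalized CPM value (reads relative to the total of their library, scaled by TMM, the trimmed mean of M-values), and a log2 fold change is the MI4KO mean minus the flox mean of log2(value + 1). This scale understates the change of genes with low values.

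Initiation is the step at which a ribosome is brought to an mRNA and placed on its start codon, and it is the step of protein synthesis at which cells exert most control. The cap-binding protein eIF4E, the scaffold eIF4G and the helicase eIF4A join the mRNA to the small ribosomal subunit, on which eIF3, eIF1, eIF1A and eIF5 sit and to which eIF2 delivers the initiator tRNA. In skeletal muscle, this machinery is the target of insulin, amino acids and loading, which act through mTORC1 on the 4E-BPs that sequester eIF4E, and of stress kinases that phosphorylate eIF2 and so slow its recharging by eIF2B.

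The deletion was examined first. Irf4 lies on chromosome 13 of GRCm38 from 30749226 to 30766976 and was at 0.686, 1.46, 1.58 and 1.68 in flox mice 1 to 4 and at 0.725, 0.840, 0.266 and 1.03 in MI4KO mice 1 to 4. Flox mouse 1 thus fell among the MI4KO mice. The estimated log2 fold change of Irf4 was -0.45 (with a standard error, SE, of 0.20, p = 0.0402 before and 1.0 after Benjamini-Hochberg adjustment over 11865 genes in limma; exact two-sided permutation test, p = 0.114), on 4 to 23 reads per mouse. Flox mouse 1 and MI4KO mice 1 and 2 have label numbers of the same range, and within that range the difference of Irf4 was 0.08, against -0.68 among the other 5 mice. The labels do not say what the number ranges stand for. Reads on genes ranged from 13417512 to 16384565 per mouse, and 3 reads correspond to levels of 0.181 to 0.225. All 6 marker genes of slow fibers, in which the soleus is rich, were detected in every mouse, with summed levels of 27817 to 34184 in the flox and 25467 to 31430 in the MI4KO mice. The 6 fast fiber markers summed to 19031 to 22983 in the flox and 17581 to 25911 in the MI4KO mice, with MI4KO mouse 3 highest. Of the 8 liver markers, 1 was detected in every mouse. Together they summed to 123.7 in flox mouse 1, to 2.03 to 3.19 in the other flox mice and to 1.197 to 1.94 in the MI4KO mice. The groups did not overlap, but the gap between them was smaller than the level of 3 reads. Of all single genes tested, 2.07% had levels that did not overlap. Markers of endothelium (3 of 3 in the table) summed to 265 to 313 in the flox and 194 to 276 in the MI4KO mice, those of adipocytes (3 of 3) to 222 to 278 and 174 to 242, those of Schwann cells (3 of 3) to 67.2 to 93.5 and 61.1 to 73.4, and those of fibroblasts and tendon (4 of 4) to 61.8 to 91.7 and 47.1 to 80.6. All of these marker genes of endothelium, adipocytes, Schwann cells, fibroblasts and tendon were detected in every mouse, and these 4 lists had higher ranges in flox mice, with overlap. Macrophage and neutrophil markers (4 of 5 in the table) summed to 7.63 to 9.91 in the flox and 9.36 to 12.3 in the MI4KO mice. The part of these cells in the differences below was not tested.

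Initiation factors were abundant and spread over a wide range of levels in SOL. Together they took 0.665 to 0.709% of the reads in flox mice and 0.689 to 0.761% in MI4KO mice, ranges that overlapped. To compare genes with each other, levels were divided by the length of the annotated exons in kilobases. This length joins all annotated exons of a gene, whether or not they are used in SOL. Genes with long or many annotated transcripts can therefore come out lower. Eif1, which monitors start codon recognition, led the order at 568 ± 25.4 CPM per kilobase (SD, n = 4 flox mice). Eif5a, an elongation factor despite its name, followed at 143 ± 3.56, then the scaffold Eif4g1 at 132 ± 6.96 and the eIF3 subunit Eif3h at 127.5 ± 5.83. The next genes in the order were the scaffold-like Eif4g2 at 97.5, Eif4b at 96.3 and the helicase Eif4a1 at 93.8 CPM per kilobase. At the bottom lay the eIF2 kinases Eif2ak3 at 0.940 and Eif2ak4 at 0.594, Eif5a2 at 0.293 and Eif4e1b at 0.233 CPM per kilobase. Of the 54 pairs of neighbours in this order, 41 had flox ranges that overlapped, so the exact order is mostly unresolved. Eif1 and Eif5a were each separate from the gene next below, whereas Eif4g1 and Eif3h were not separate from each other. Transcripts of Eif1 share 10.7% of their 50-base words with Emd, and those of Eif4a3 11.8% with Gm8994, so that part of their levels rests on how reads were assigned. Annotated genes without a row in the expression table share words as well. With these counted, the share was 65.5% for Eif4ebp3, 65.3% for Eif4a1, 35.4% for Eif2s3x and 26.2% for Eif3h, among others. Whether such genes added reads to these levels was not tested.

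**Figure D1:**
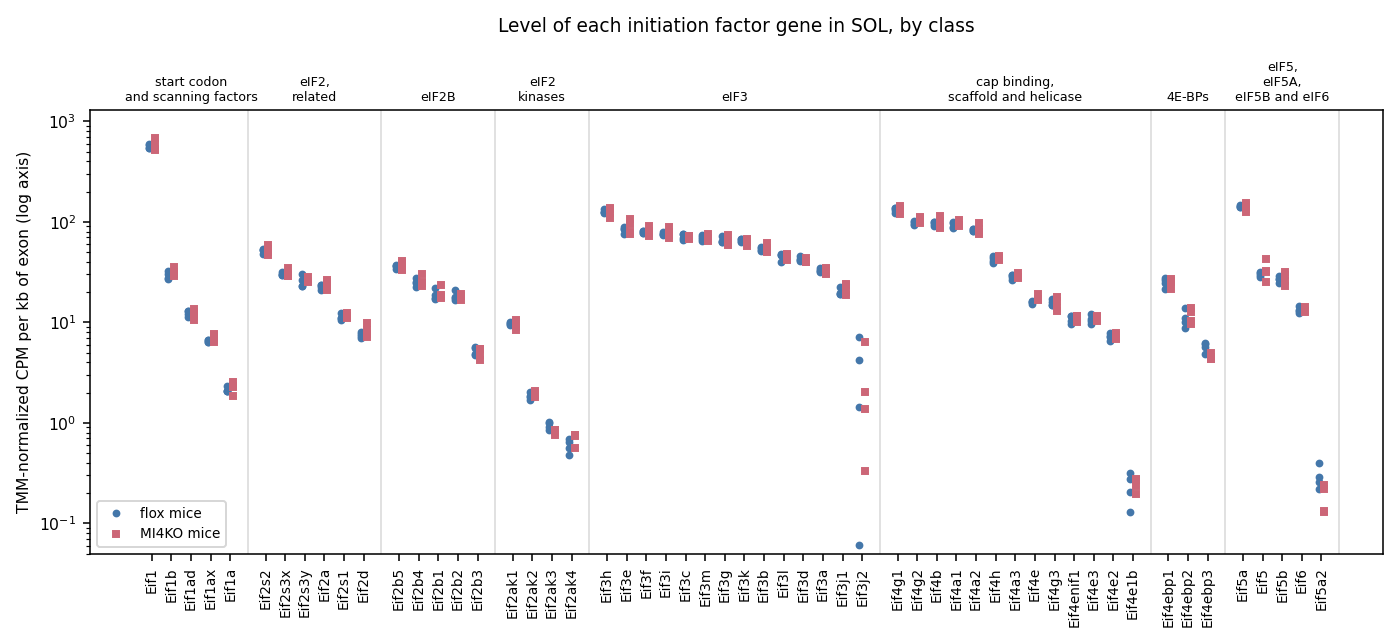
Level of each of the 55 initiation factor genes in SOL as TMM-normalized CPM per kilobase of exon, on a log axis, grouped by class and ordered within each class by the flox mean; circles are the 4 flox mice and squares the 4 MI4KO mice. Eif1 lies above all others, Eif4e1b and Eif5a2 lie lowest, and the symbols of the 2 groups overlap for most genes, with a wide scatter only for Eif3j2.

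Within multi-subunit complexes, levels per kilobase were unequal, by amounts that depend on the annotated exon lengths. The 5 eIF2B subunits ran from 5.19 CPM per kilobase for Eif2b3 to 36.1 for the catalytic subunit Eif2b5, a span of 6.96-fold. The eIF3 subunits without Eif3j2 ran from 20.2 for Eif3j1 to 127.5 for Eif3h, a span of 6.33-fold. Among the 4 eIF2 kinases, the heme-regulated Eif2ak1 was highest at 9.72 CPM per kilobase and Eif2ak4, which senses uncharged tRNA, lowest at 0.594. Eif4ebp1 led the 4E-BPs at 25.1, against 11.0 for Eif4ebp2 and 5.71 for Eif4ebp3. The paralogous helicases Eif4a1 and Eif4a2 were nearly even per kilobase, with a ratio of Eif4a2 to Eif4a1 of 0.820 to 0.972 over the 8 mice. Without division by length, the flox means were 266 for Eif4a2 and 166 for Eif4a1. Eif5a exceeded its paralog Eif5a2 per kilobase by 366-fold to 1137-fold.

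Between MI4KO and flox mice, the initiation factors differed little. Of the 55 genes, 54 had a level of at least 1 in at least 4 mice and were tested, all but Eif4e1b. No member passed an adjusted p under 0.05 by limma, nor did any of the 11865 genes tested (0%). At an unadjusted p under 0.05, 2 of 54 members were counted, Eif5a2 and Eif4ebp3, both lower in MI4KO mice, where 3.36% of all genes tested were counted, 2.95% lower and 0.413% higher. Members past a fold of 1.5 as well numbered 0 on the log2(value + 1) scale, against 0.219% of all genes tested. By edgeR on read counts 1 member, Eif5a2, passed both limits, and by DESeq2 0 did. The share of all genes was not counted for these 2 methods. Eif4e was the 1 member whose levels did not overlap between the groups, and it was higher in MI4KO mice. Of all genes tested, 2.07% had such separate levels, 0.371% in the higher direction. The log2 fold changes of the members ran from -0.38 for Eif5a2 to 0.20 for Eif2ak4. Their median was 0.017, beside -0.015 over all genes tested, and 34 of 54 members lay above 0 (63.0%), beside 43.8% of all genes tested. These values are for whole muscle, in which fewer cells of a type and less RNA per cell cannot be told apart.

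The data bounded the size of most differences. On the log2(value + 1) scale, the 95% confidence interval lay within 1.5-fold in either direction for 52 of 54 members (96.3%), beside 90.7% of all genes tested. It lay within 1.25-fold for 46 members. The exceptions at 1.5-fold were Eif5a2 and Eif3j2. Intervals of members with low levels are too narrow on this scale. For Eif4ebp3 the fold was 0.837 on this scale, whereas the ratio of the group means was 0.796. At this depth, 48 of the 55 members had at least 100 reads in every mouse. The median within-group SD of the members on the log2 scale was 0.113, beside 0.151 for all genes tested, whose median level was 16.1 against 70.6 for the members. The spread was lowest for the eIF3 subunit Eif3d, with an SD of 0.060, and highest for Eif3j2, with an SD of 1.54.

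**Figure D2:**
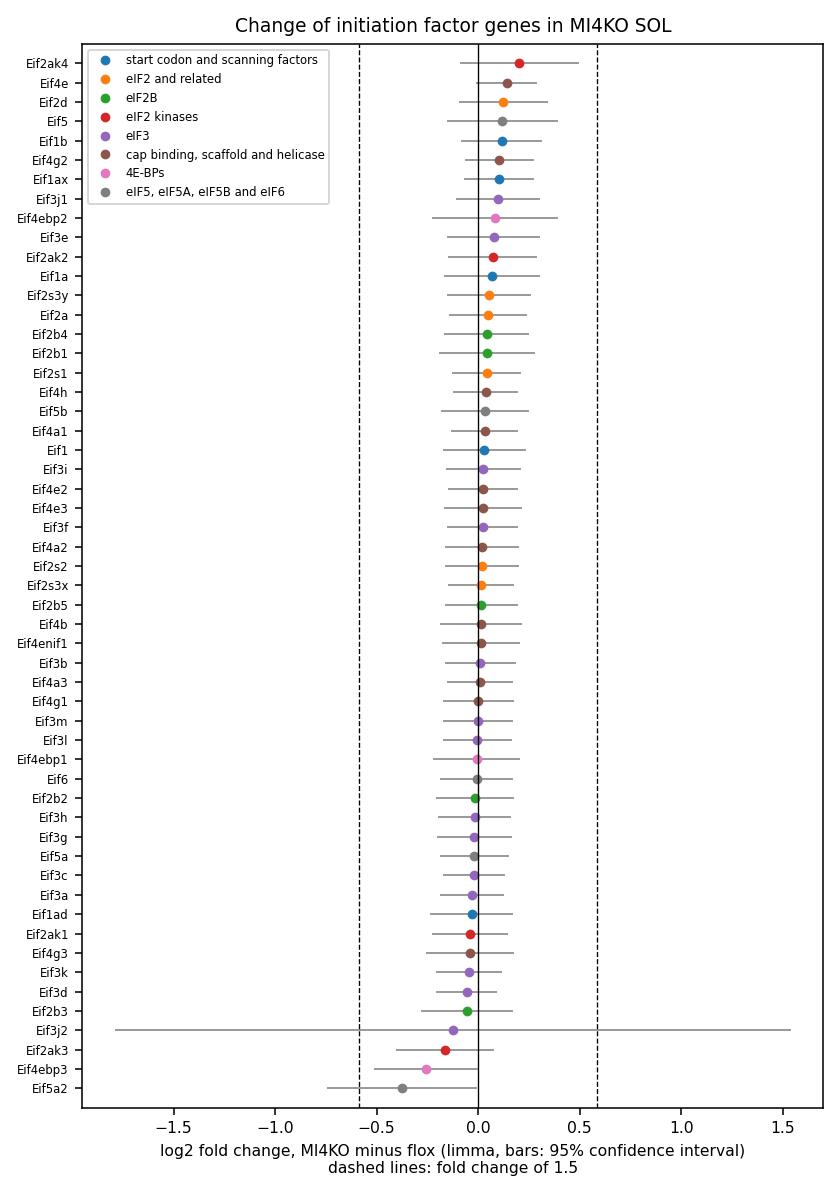
Log2 fold change (MI4KO minus flox, limma on log2(value + 1)) of the 54 initiation factor genes tested, ordered by size and colored by class; bars are 95% confidence intervals and dashed lines mark a fold change of 1.5. The estimates run from -0.38 for Eif5a2 to 0.20 for Eif2ak4, and the bars of only 2 genes, Eif5a2 and Eif3j2, reach past a dashed line.

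Among the 13 cap-binding, scaffold and helicase genes, of which 12 were tested, 11 had log2 fold changes above 0, beside 43.8% of all genes tested. None had an unadjusted p under 0.05. The count above 0 over all members depended on the scaling and on single mice, as given below. Eif4e encodes the protein that holds the mRNA cap. It was at 83.9, 81.2, 82.3 and 78.7 in flox mice 1 to 4 and at 98.0, 88.0, 85.8 and 88.4 in MI4KO mice 1 to 4. Every MI4KO mouse lay above every flox mouse, and the gap was narrow, from 83.9 in the highest flox mouse to 85.8 in the lowest MI4KO mouse. The log2 fold change of Eif4e was 0.14 (SE 0.068, 95% interval -0.0064 to 0.29, unadjusted p = 0.0592, adjusted p = 1.0 by limma). An exact permutation test, two-sided, gave p = 0.0286, the smallest that 4 mice against 4 allow. Between 1080 and 1463 reads per mouse stood behind these levels. The separation depended on the scaling of the libraries. With median-of-ratios scaling, flox mice were at 77.4 to 82.9 and MI4KO mice at 81.4 to 99.1, and with library-size scaling they were at 76.7 to 84.1 and 78.7 to 100.7.

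**Figure D3:**
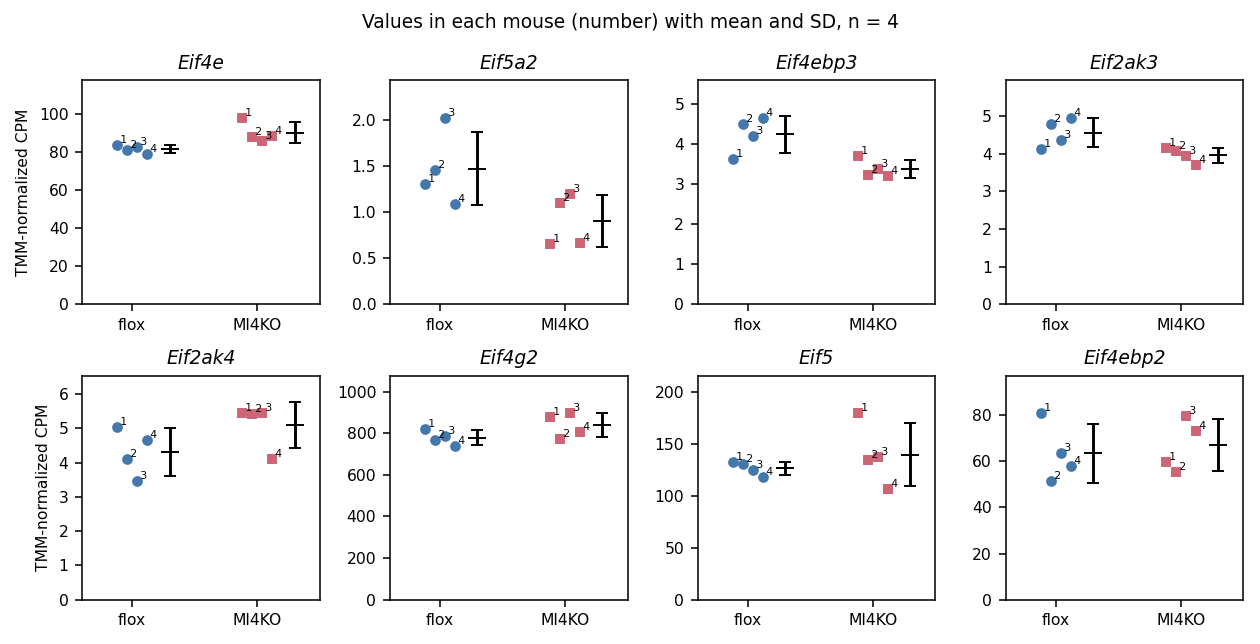
TMM-normalized CPM of 8 initiation factor genes in each mouse (numbers 1 to 4), with axes that start at 0; the bars beside the points are the mean and SD of 4 mice. The groups do not overlap for Eif4e. They overlap through 1 mouse of a group for Eif5a2, Eif4ebp3, Eif2ak3, Eif2ak4 and Eif5, and more widely for Eif4g2 and Eif4ebp2.

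Sequence before the starts is shown for Eif4e, whose groups did not overlap, and for Eif5a2, which had the lowest estimate of the family. RefSeq (GRCm38.p6) gave a promoter of 250 bases before to 50 bases after the start for 43 of the 55 members. The others were Eif1a, Eif2b3, Eif3e, Eif3h, Eif3i, Eif3j2, Eif4e1b, Eif4e3, Eif4ebp1, Eif4ebp3, Eif4g2 and Eif6. The letters CACGTG, a site read by Myc and related factors, occurred on either strand in 10 of 43 member promoters (23.3%), beside 8.09% of the promoters of 27025 genes. Those genes were taken whether or not they are expressed in SOL, and were not matched to the members. Besides Eif4e and Eif5a2, the carriers were Eif1b, Eif3a, Eif3f, Eif3k, Eif4a1, Eif4g1, Eif4h and Eif5a. The log2 fold changes of these others ran from -0.04 for Eif3k to 0.12 for Eif1b, and none had an unadjusted p under 0.05. Binding at these sites was not measured. Eif5a2 holds this site 142 and 117 bases before its start, on chr3:28781110-28781190 (plus strand). Eif4e has a pair of RefSeq starts, and the site lies 228 and 64 bases before the downstream start, on chr3:138527028-138527057 and chr3:138527192-138527221 (plus strand). In GENCODE M21 these Eif4e stretches lie inside the gene, within an exon of 1 of its transcripts. The sites are shown in capitals.
Eif5a2: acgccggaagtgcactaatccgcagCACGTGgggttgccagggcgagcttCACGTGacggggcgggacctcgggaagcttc
Eif4e, distal: ctcgccagcgacCACGTGatcacttttttt
Eif4e, proximal: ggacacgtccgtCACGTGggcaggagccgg

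The other cap-complex genes overlapped between the groups. The helicase gene Eif4a1 was at 157, 156, 178 and 175 in flox and at 166, 165, 186 and 163 in MI4KO mice, for an estimated log2 fold change of 0.03 (SE 0.074). Its paralog Eif4a2 was at 262, 273, 270.5 and 259 in flox and at 274, 245, 313 and 253 in MI4KO mice, for an estimated log2 fold change of 0.02 (SE 0.081). For both helicases, MI4KO mouse 3 had the highest level of all mice. Eif4g2, whose product works in cap-independent initiation, was at 821, 768, 789 and 738 in flox and at 879, 775, 898 and 804 in MI4KO mice, with an estimated log2 fold change of 0.11 (SE 0.075). MI4KO mice 1 and 3 lay above all flox mice for Eif4g2, and the other two lay among them. Eif4e1b, which is best known from oocytes, was at 0.277 to 0.686 in the flox and 0.423 to 0.598 in the MI4KO mice on 4 to 11 reads, and was not tested. In the lowest library this is close to the 3 reads taken as detected.

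The 4E-BPs compete with eIF4G for eIF4E and release it once mTORC1 phosphorylates them. Eif4ebp3, the lowest of the 3 genes per kilobase, was at 3.62, 4.51, 4.20 and 4.66 in flox and at 3.70, 3.23, 3.39 and 3.20 in MI4KO mice. MI4KO mouse 1 was above flox mouse 1, and the other MI4KO mice were below all flox mice. Eif4ebp3 had a log2 fold change of -0.26 (SE 0.116, 95% interval -0.51 to -0.0055, p = 0.0459 before and 1.0 after adjustment in limma; exact two-sided permutation test, p = 0.0571), on 50 to 65 reads per mouse. Within the number range of flox mouse 1 and MI4KO mice 1 and 2, the difference of Eif4ebp3 was -0.05, against -0.34 among the other 5 mice. Eif4ebp1, the highest of the 3 per kilobase, was at 55.4, 48.8, 53.3 and 43.1 in flox and at 50.7, 42.9, 54.0 and 51.8 in MI4KO mice. The groups covered almost the same range, with an estimated log2 fold change of -0.01 (SE 0.097). Eif4ebp2 was at 81.0, 51.3, 63.5 and 57.9 in flox and at 59.9, 55.3, 79.8 and 73.4 in MI4KO mice. Its difference was -0.48 within the first number range and 0.41 within the other, and 0.08 over all mice (SE 0.141). The summed 4E-BP level per kilobase was 2.47 to 2.85 times that of Eif4e in flox mice and 2.06 to 2.72 times in MI4KO mice, ranges that overlapped. This ratio rests on the annotated exon lengths.

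The start codon and scanning factors showed no separation at the deposited scaling. Eif1b, a close relative of Eif1, was at 28.3, 31.1, 33.4 and 28.0 in flox and at 32.9, 30.2, 37.0 and 31.2 in MI4KO mice, for an estimated log2 fold change of 0.12 (SE 0.089). Eif1ax, the X-linked gene of the scanning factor eIF1A, was at 34.5, 32.8, 34.7 and 33.3 in flox and at 38.3, 33.4, 39.4 and 34.7 in MI4KO mice, for an estimated log2 fold change of 0.10 (SE 0.077). MI4KO mice 1 and 3 were highest for Eif1ax, and MI4KO mouse 2 lay among the flox mice. The share of all genes with separate groups was not counted under median-of-ratios scaling. With that scaling the groups of Eif1ax did separate, at 32.8 to 34.1 in the flox and 34.6 to 38.7 in the MI4KO mice. Its relative Eif1a was far lower, at 8.73, 9.64, 8.63 and 8.67 in flox and 9.58, 9.70, 10.6 and 7.80 in MI4KO mice. The 5 genes of this class had log2 fold changes from -0.03 for Eif1ad to 0.12 for Eif1b. Of these, 4 lay above 0, beside 43.8% of all genes tested.

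eIF2 carries the initiator tRNA in its GTP-bound form, and phosphorylation of its alpha subunit, encoded by Eif2s1, is the central switch of the stress response. Eif2s1 was at 36.2, 42.0, 37.7 and 37.4 in flox and at 39.8, 38.6, 41.9 and 37.4 in MI4KO mice, for an estimated log2 fold change of 0.04 (SE 0.076). The groups of Eif2s1 covered nearly the same range. The gamma subunit has an X-linked and a Y-linked gene, and both were read in all 8 male mice, Eif2s3x at 108 to 127.96 and Eif2s3y at 42.0 to 55.3. Per mouse, Eif2s3x was at 119, 110.2, 110.1 and 112 in flox and at 127.96, 108, 113 and 108 in MI4KO mice, and Eif2s3y was at 42.2, 48.2, 55.3 and 42.0 in flox and at 46.1, 47.6, 52.3 and 47.9 in MI4KO mice. Per kilobase the X-linked gene was at 0.982 to 1.39 times the Y-linked gene, which rests on annotated exon lengths of 3.72 and 1.836 kilobases. Their log2 fold changes were 0.02 (SE 0.073) and 0.05 (SE 0.093). The transcripts of these genes shared no stretch of 50 bases, the read length, with each other, so that single reads could be told apart between them. Of the 50-base words of Eif2s3x, however, 35.4% occur in annotated genes without a row in the expression table. Eif2d, which can deliver tRNA without GTP, had the largest estimate of this class, with levels of 32.8, 31.9, 28.7 and 30.2 in flox and 34.5, 31.6, 40.4 and 29.4 in MI4KO mice and an estimated log2 fold change of 0.12 (SE 0.098). MI4KO mouse 3 stood highest for Eif2d. All 6 genes of the class had estimates above 0, from 0.02 to 0.12, beside 43.8% of all genes tested. None had an unadjusted p under 0.05, and the sign of Eif2s3x turned when a mouse was left out.

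Since the deleted gene encodes an interferon regulatory factor, the core of the element such factors bind, GAAA followed after any 2 bases by another GAAA, was searched in the same windows on both strands. It occurred in 4 of 43 member promoters (9.30%), those of Eif2ak2, Eif2s1, Eif2s3x and Eif3a, beside 3.99% of the promoters of the same 27025 genes, expressed or not. The match begins 212 bases before the RefSeq start of Eif2s1, on chr12:78861850-78861879 (plus strand), and 211 bases before that of Eif3a, on chr19:60790870-60790929 (minus strand), where it is read on the opposite strand. In GENCODE M21 the stretch of Eif2s1 lies within the first exon of the gene, which starts upstream of the RefSeq start.
Eif2s1: cctggagcaaGAAACAGAAActtacctctc
Eif3a: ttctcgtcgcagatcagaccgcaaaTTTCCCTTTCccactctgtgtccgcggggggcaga
All 4 genes had an unadjusted p over 0.05 in the comparison of MI4KO with flox mice, and their log2 fold changes were 0.07 for Eif2ak2, 0.04 for Eif2s1, 0.02 for Eif2s3x and -0.03 for Eif3a. A match of letters is not a measured binding site.

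eIF2B exchanges GDP for GTP on eIF2. Its catalytic subunit Eif2b5 was at 94.8, 87.3, 93.7 and 93.0 in flox and at 100.3, 86.1, 103 and 84.5 in MI4KO mice, and the MI4KO mice lay on both sides of the flox range. Eif2b5 had a log2 fold change of 0.02 (SE 0.080). Eif2b3, the gamma subunit, had the largest estimate of the 5 subunits, -0.06 (SE 0.102), with levels of 19.5, 19.0, 22.4 and 22.7 in flox and 22.1, 17.2, 22.1 and 19.1 in MI4KO mice. No subunit had an unadjusted p under 0.05, and all 5 confidence intervals lay within 1.5-fold.

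The 4 eIF2 kinases each sense another stress. Eif2ak4, encoding GCN2, the sensor of amino acid shortage, was at 5.05, 4.09, 3.45 and 4.66 in flox and at 5.44, 5.43, 5.45 and 4.11 in MI4KO mice. MI4KO mice 1 to 3 were nearly equal and above all flox mice, while MI4KO mouse 4 lay among the flox mice. The log2 fold change of Eif2ak4 was 0.20 (SE 0.133, unadjusted p = 0.151, adjusted p = 1.0 by limma), on 46 to 84 reads. Eif2ak3, encoding PERK, the sensor of the endoplasmic reticulum, was at 4.11, 4.79, 4.35 and 4.95 in flox and at 4.13, 4.07, 3.92 and 3.69 in MI4KO mice. A single MI4KO mouse, mouse 1, was above the lowest flox mouse, mouse 1, and the difference between them was small. Eif2ak3 had a log2 fold change of -0.16 (SE 0.109, unadjusted p = 0.161, adjusted p = 1.0 by limma; exact two-sided permutation test, p = 0.0571), and within the number ranges the difference was -0.0031 and -0.24. Eif2ak2, encoding PKR, the sensor of double-stranded RNA and a well-known interferon-induced gene, was at 7.28 to 8.81 in the flox and 7.82 to 8.99 in the MI4KO mice, with an estimated log2 fold change of 0.07 (SE 0.098). Eif2ak1, the most abundant of the kinases, was at 40.3 to 43.7 in the flox and 36.3 to 45.3 in the MI4KO mice.

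eIF3, the largest of the initiation factors, is encoded here by 14 genes. None of them had an unadjusted p under 0.05, 5 had estimates above 0 and 9 below, and the estimates ran from -0.12 for Eif3j2 to 0.10 for Eif3j1. The core subunit Eif3a was at 162 to 179 in the flox and 154 to 178 in the MI4KO mice, with an estimated log2 fold change of -0.03 (SE 0.071). Eif3l was at 91.2, 78.0, 91.7 and 92.8 in flox and 92.1, 89.1, 89.5 and 81.8 in MI4KO mice. Flox mouse 2 was lowest for Eif3l. Eif3g was at 70.4, 69.0, 79.4 and 70.2 in flox and 71.2, 67.6, 81.5 and 65.5 in MI4KO mice, with mouse 3 highest in both groups.

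The subunit eIF3j, which sits loosely on the complex, has a pair of near-identical genes in the mouse, Eif3j1 and Eif3j2. Of the 50-base words in the Eif3j2 transcript, 90.8% also occur in Eif3j1, and 39.4% of those of Eif3j1 occur in Eif3j2, so that most reads of Eif3j2 could not be assigned by sequence alone. Eif3j2 was at 3.43, 9.99, 17.1 and 0.146 in flox and at 15.1, 3.30, 4.79 and 0.786 in MI4KO mice, on 2 to 228 reads. It thus ran from 2 to 228 reads within the flox mice alone, and no group difference could be read from it (log2 fold change -0.12, SE 0.764). Eif3j1 was steady at 105, 121.7, 106 and 104 in flox and 127.6, 108, 132 and 102 in MI4KO mice, with an estimated log2 fold change of 0.10 (SE 0.093). The sum of both genes was at 104 to 132 in the flox and 103 to 143 in the MI4KO mice. How reads were split between these copies was not tested.

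**Figure D4:**
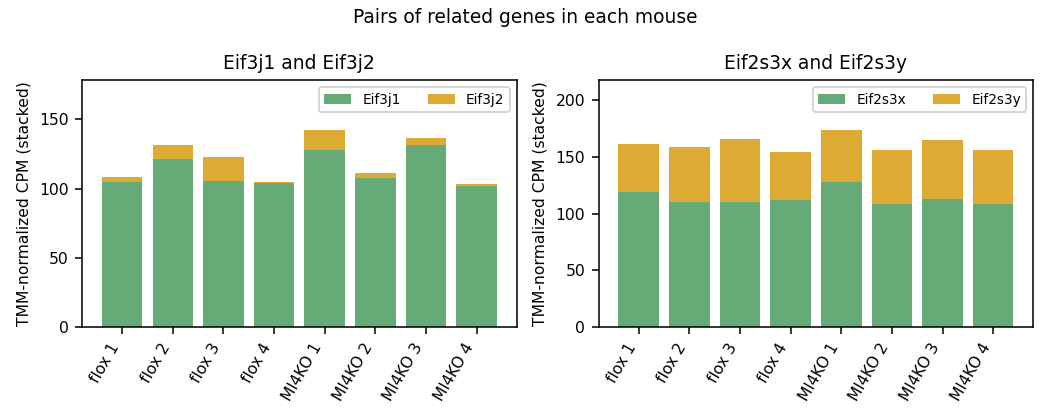
TMM-normalized CPM of Eif3j1 and Eif3j2 (left) and of Eif2s3x and Eif2s3y (right), stacked for each of the 8 mice. Eif3j2 varies from 0.146 to 17.1 between mice while Eif3j1 stays between 102 and 132. Eif2s3x lies above Eif2s3y in all mice, at 108 to 127.96 against 42.0 to 55.3.

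Of the late-acting factors, Eif5a2 was counted at an unadjusted p under 0.05. It encodes a close relative of eIF5A, the factor that carries the modified amino acid hypusine. Eif5a2 was at 1.31, 1.46, 2.03 and 1.09 in flox and at 0.653, 1.10, 1.197 and 0.665 in MI4KO mice. Flox mouse 4 lay among the MI4KO mice, and the other flox mice were above all of them. The log2 fold change of Eif5a2 was -0.38 (SE 0.168, 95% interval -0.74 to -0.011, p = 0.0443 before and 1.0 after adjustment in limma; exact two-sided permutation test, p = 0.0857), on 9 to 27 reads per mouse. Eif5a itself was at 332, 339, 351 and 334 in flox and at 351, 322, 370 and 301 in MI4KO mice, with an estimated log2 fold change of -0.02 (SE 0.076). Eif5, which activates the GTPase of eIF2 at the start codon, was at 132, 131, 125 and 118 in flox and at 180.0, 135, 138 and 107 in MI4KO mice. MI4KO mouse 1 was highest and MI4KO mouse 4 lowest of all mice for Eif5, with an estimate of 0.12 (SE 0.124) on the log2 scale. Eif6, which keeps the ribosomal subunits apart, was at 32.5, 32.2, 35.9 and 30.2 in flox and at 31.0, 31.9, 35.3 and 31.7 in MI4KO mice, with an estimated log2 fold change of -0.01 (SE 0.080).

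Some mice stood high or low for many members at once. At the deposited scaling, MI4KO mouse 3 had the highest level for 24 of 54 members (44.4%), beside 30.9% of all genes tested, and MI4KO mouse 4 had the lowest level for 19 of 54 (35.2%), beside 14.4%. The median deviation of the members from their means was 0.12 in MI4KO mouse 3 and -0.10 in MI4KO mouse 4 on the log2 scale, a wider range within the MI4KO group than the median difference between the groups. Which mouse stood highest depended on the scaling. MI4KO mouse 1 was highest for 11 members at the deposited scaling, for 22 with median-of-ratios scaling and for 24 with library-size scaling, beside 12.9, 18.8 and 19.8% of all genes tested. The number of members with a log2 fold change above 0 was 34, 43 and 48 of 54 under the 3 scalings. Counted against the median of all genes tested in place of 0, it was 38, 39 and 40. Without MI4KO mouse 3, 18 of 54 members lay above 0 and their median log2 fold change was -0.032, beside a median of -0.042 over all genes tested, above which 30 of 54 members lay.

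**Figure D5:**
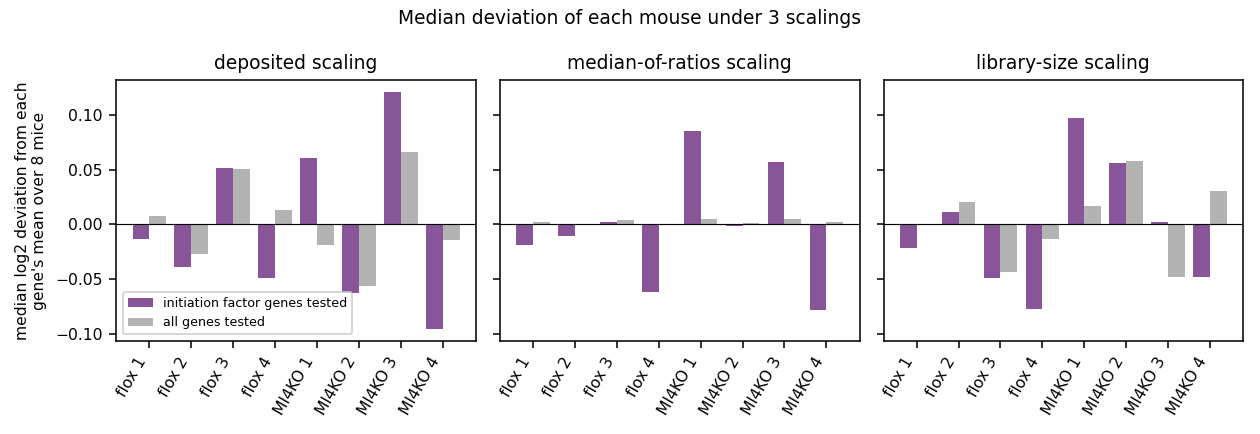
Median log2 deviation from each gene's mean over the 8 mice, for the 54 initiation factor genes tested and for all 11865 genes tested, in each mouse under 3 scalings of the libraries. At the deposited scaling the members reach 0.12 in MI4KO mouse 3 and -0.10 in MI4KO mouse 4; with the other scalings MI4KO mouse 1 is highest.

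Other genes of translation and of its control were given by lists of elongation, termination and recycling, poly(A) binding, the mTORC1 branch, the response to eIF2 phosphorylation and further initiation proteins. Of 56 such genes, 55 were tested, 0 had an adjusted p under 0.05 by limma and 1 had an unadjusted p under 0.05, lower in MI4KO mice, where 3.36% of all genes tested were counted, 2.95% lower. This gene was Pdcd4, whose product blocks the helicase eIF4A and is degraded after mTORC1 signaling. Pdcd4 was at 13.2, 18.2, 14.0 and 15.2 in flox and at 12.4, 13.0, 11.4 and 12.9 in MI4KO mice. At the deposited scaling every MI4KO mouse lay below every flox mouse, by a narrow margin, where 1.7% of all genes tested were separate in this direction. The groups overlapped with median-of-ratios scaling (13.0 to 18.5 in the flox and 10.8 to 13.5 in the MI4KO mice) and with library-size scaling (13.1 to 18.9 and 10.4 to 14.2). Pdcd4 had a log2 fold change of -0.26 (SE 0.107, p = 0.0299 before and 1.0 after adjustment in limma; exact two-sided permutation test, p = 0.0286). Its unadjusted p ran from 0.0147 to 0.117 over 17 alternatives and was over 0.05 in 8 of them. The counts at an unadjusted p under 0.05 were 0 of 8 for elongation, 0 of 3 for termination and recycling, 0 of 6 for poly(A) binding, 1 of 15 for the mTORC1 branch, 0 of 13 for the eIF2 response and 0 of 10 for the further initiation proteins. Over the 55 genes the median log2 fold change was 0.019 and 36 lay above 0 (65.5%), beside 43.8% of all genes tested. The highest estimate was that of Asns, the asparagine synthetase that ATF4 induces, at 0.38 (SE 0.197, unadjusted p = 0.0749, adjusted p = 1.0 by limma), with levels of 0.486 to 1.93 in the flox and 1.52 to 2.26 in the MI4KO mice on 7 to 34 reads.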

How the data were processed

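SOL libraries of 4 MI4KO and 4 flox mice were analysed, grouped by their labels. Per the labels and the study's methods, the authors made stranded mRNA libraries, read 50 bases as single reads (bcl2fastq 2.17), aligned these to the UCSC transcript set (Bowtie2 2.1.0), estimated expression with RSEM 1.2.15 and scaled it by TMM. The submitters' processing notes name mm10. How RSEM treated strand is not given in the sources used here. The deposited signal gives TMM-normalized CPM by gene and mouse, with columns that sum to 917785 to 1089208. Columns mapped to no sample numbered 0. The authors' columns of fold change, p-value and FDR were not used. Dividing each value by the smallest step of its mouse gave whole numbers for 100% of the non-zero values (within 0.01), and these recovered reads served as counts. Depth and detection limits reflect counting error alone, because no molecular identifiers were used. The chi-square between libraries, per degree of freedom, lay between 6.06 and 52.4, so each was taken as its own sample.

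Genes that reached a value of 1 in 4 or more of the 8 mice were tested with limma 3.58.1 (R 4.3.3) with a mean-variance trend on log2(value + 1), as stated in the design, with Benjamini-Hochberg adjustment over all 11865 genes. Exact two-sided permutation tests were made with scipy 1.17.1. Replicates are separate mice. The alternatives were a pseudocount of 0.25, no filter, median-of-ratios or library-size scaling, limma with robust estimation or without the trend, a covariate for the range of mouse numbers, each mouse left out, and edgeR 4.0.16 (quasi-likelihood) and DESeq2 1.42.0 on the recovered reads. The limma test was checked on simulated counts for the genes of this table. At an adjusted p under 0.05 it called 48 of 95 genes simulated at 1.5-fold and 85 of 97 at 2-fold. Many true changes of 1.5-fold would thus be missed at that limit.

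Levels in every mouse were given for members with an unadjusted p under 0.05, with groups that do not overlap, with the largest estimate of their class or with a mouse set apart, and for 11 members that are textbook points of control or close copies. Eif1ax, Eif4g2, Eif4ebp2, Eif5 and Asns were named after their values were seen. The gene family, its classes, the lists of other genes and the motifs were chosen with earlier results of these data known. Classes were assigned by gene symbol, and whether each gene, such as Eif1ad, Eif4a3 or Eif4enif1, acts in the step its class names was not tested. Exon lengths, positions and transcripts are from GENCODE M21 (GRCm38) by symbol, and promoters from RefSeq (GRCm38.p6).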

Additional observations from a re-analysis of the deposited data

Results flagged for a closer look

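Single mice were picked out where the distance to the next mouse on the log2 scale, divided by the range of the group, passed Dixon's 95% critical value. Of the 108 groups of 4 mice examined, 6 passed, and chance flags about 1 in 20 groups. The widest gap was that of Eif2ak4, where MI4KO mouse 4 was low at 4.11 (gap 0.986 of the range). Flox mouse 2 was high for Eif3j1 at 121.7 (0.906) and for Eif1a at 9.64 (0.897), and low for Eif3l at 78.0 (0.899). Flox mouse 3 was high for Eif3g at 79.4 (0.860), and MI4KO mouse 3 was high for Eif4a1 at 185.9 (0.847).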

How the results depend on the processing

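No paired analysis was possible because the labels give no mouse number that both groups share. No member had an adjusted p under 0.05 by limma with any setting, by edgeR or by DESeq2. Members at an unadjusted p under 0.05, 2 at the reported setting, numbered 4 with library-size scaling (Eif4e, Eif1b, Eif1ax and Eif4g2, all higher), 1 with robust estimation (Eif5a2), 0 with a covariate for the number range of the mice, 1 by DESeq2 (Eif4e), and 0 to 2 with a mouse left out. Of all genes, 3.32, 3.31, 3.09 and 2.09% were counted in the first 4 of these and 258 to 618 of 11865 genes with a mouse left out. Without the filter, with median-of-ratios scaling and by edgeR the number was again 2, beside 3.53, 3.33 and 3.06% of all genes. The genes were then Eif4e and Eif5a2, whereas Eif4ebp3 was just over the limit in all 3 of these settings, at unadjusted values of 0.0569, 0.0548 and 0.0517. Eif5a2 stayed under that limit without flox mouse 4, MI4KO mouse 2 or MI4KO mouse 3, and Eif4ebp3 without flox mouse 1 or MI4KO mouse 1. By edgeR, 1 member (Eif5a2) also passed a fold of 1.5. The share of all genes past both limits was counted only at the reported setting. Members with separate groups numbered 3 with library-size scaling (Eif1b, Eif1ax and Eif4g2) and 1 to 3 with a mouse left out. With median-of-ratios scaling the separate member was Eif1ax. The share of all genes with separate groups, 2.07%, was counted only at the reported setting, so these numbers have no background beside them. For Eif1b with library-size scaling, the highest flox mouse was at 32.26 and the lowest MI4KO mouse at 32.33. Eif4e was among the separate members each time a mouse was left out. That outcome was fixed in advance, because its groups were separate with all mice, so nothing further is drawn from it. The median log2 fold change of the members was -0.032 to 0.049 with a mouse left out.

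Estimates near 0 turned sign. The other scalings moved all genes, whose median log2 fold change was -0.015 as deposited, 0.0044 with median-of-ratios and 0.026 with library-size scaling, so these changes of sign say nothing particular about the members. With library-size scaling, Eif3a was at 0.012, Eif4ebp1 at 0.037, Eif5a at 0.026 and Eif6 at 0.035 on the log2 scale. With median-of-ratios scaling, Eif4ebp1 was at 0.014, Eif5a at 0.0022 and Eif6 at 0.012. By edgeR, Eif4ebp1 was at 0.0056 and Eif6 at 0.0065, and by DESeq2, Eif4ebp1 at 0.0080, Eif5a at 0.0023 and Eif6 at 0.0092. With the covariate, Eif2s3x was at -0.0075 and Eif6 at 0.0050, and with a pseudocount of 0.25, Eif3j2 was at 0.033. With a mouse left out, the log2 fold changes that turned sign ranged from -0.10 to 0.012 for Eif2b3, -0.033 to 0.062 for Eif2b5, -0.039 to 0.041 for Eif2s3x, -0.067 to 0.0011 for Eif3a, -0.89 to 0.44 for Eif3j2, -0.011 to 0.067 for Eif4a1, -0.051 to 0.067 for Eif4a2, -0.076 to 0.063 for Eif4ebp1, -0.0086 to 0.21 for Eif4ebp2, -0.0091 to 0.24 for Eif5, -0.066 to 0.033 for Eif5a and -0.047 to 0.036 for Eif6. The cause of these last was not tested. Eif4e (0.10 to 0.18), Eif5a2 (-0.68 to -0.27) and Eif4ebp3 (-0.32 to -0.22) kept their sign under all alternatives run. Depth limits Eif5a2, Eif4e1b and Irf4, with as few as 9, 4 and 4 reads.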
